A study of Rattus norvegicus with 9 samples.

Results

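The small leucine-rich proteoglycan genes described here are Dcn, Lum, Bgn, Fmod, Ogn, Omd, Prelp and Aspn. They were taken as the 8 of 21923 genes in the deposited table whose symbol equals one of these names. The study sequenced poly(A)-selected RNA from 9 libraries of rat adipose-derived stromal cells (ADSCs), mesenchymal cells that grow on plastic after collagenase digestion of inguinal fat. All cells came from GFP-transgenic rats and were at passage 4 when the groups divided. The 3 Con libraries are those passage 4 cells. The 3 Vitro libraries are passage 4 cells kept and passaged in an incubator until the Vivo cells were taken. The 3 Vivo libraries are passage 4 cells that had been injected into the fat of nude mice and were isolated again 7 days later. The labels do not say how the rat cells were separated from cells of the mouse host, nor whether the 3 libraries of each group go back to different animals or dishes. What the p-values weigh is thus how far these libraries scatter, and that scatter may be technical.

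Small leucine-rich proteoglycans are secreted proteins built around a run of leucine-rich repeats. Most carry chondroitin, dermatan or keratan sulfate chains. They bind fibrillar collagens and set the width and spacing of fibrils in skin, tendon, cornea and the stroma of fat. They also hold growth factors such as TGF-beta in the matrix, and some act as ligands of cell surface receptors. Decorin (Dcn), biglycan (Bgn) and asporin (Aspn) form class I, of which decorin and biglycan carry chondroitin or dermatan sulfate. Lumican (Lum), fibromodulin (Fmod), PRELP (Prelp) and osteomodulin (Omd) belong to class II, and osteoglycin (Ogn, also called mimecan) to class III. In the RefSeq annotation of the GRCr8 assembly, Dcn and Lum are neighbours on chromosome 7, Prelp and Fmod on chromosome 13, and Ogn, Omd and Aspn follow one another on chromosome 17, while Bgn lies on the X chromosome.

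Total counts were 17484607 to 18355242 per library, so 3 counts, the limit that a count of 0 allows, came to 0.163 to 0.172 CPM, a gene's counts per library total, before TMM scaling. Vivo replicate 3 stood apart from its group: its log2 CPM had r = 0.949 and 0.951 with the remaining Vivo libraries, while all other pairs within a group had 0.970 to 0.986. The gap between it and its group mates went with gene length (Spearman's rho = -0.52 over genes, which are not independent replicates), and 3.48% of its counts fell on mitochondrially encoded genes, against 2.07% to 2.54% in the other 8 libraries. Unless FPKM is named, a level is a TMM-scaled CPM, and a group's level is the mean ± SD of n = 3 libraries. Each log2 fold change is printed ± SE. Its adjusted p comes from the quasi-likelihood test of edgeR, with the Benjamini-Hochberg method over 12364 genes and a threshold of 0.05. In bulk RNA, fewer cells of a type and less RNA per cell cannot be told apart.

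After 7 days in host fat, decorin was the most abundant transcript of the family per length, while biglycan was in both cultured groups. Decorin and PRELP transcripts rose against Vitro, biglycan transcripts fell against Vitro and against Con, and lumican was higher in all 3 Vivo libraries without passing the test. Osteoglycin was also called higher against Vitro, but it had enough counts to be tested only because of its Vivo level, and the call was lost without Vivo replicate 3 or any one Vitro library. Fibromodulin did not pass in any comparison. Of the 6 members with enough counts to be tested, 3 were called higher and 1 lower in Vivo against Vitro, where 10.9% of all genes were called (5.38% higher and 5.52% lower). Leaving out Ogn, 2 of 5 were called higher and 1 lower. Against Con none was called higher and 1 was called lower, where 9.73% of all genes were called (5.17% higher and 4.56% lower). In Vitro against Con edgeR called none of the 6, where 0.0324% of all genes were called (0.00809% higher and 0.0243% lower). There 0 of the 6 had an unadjusted p below 0.05, a threshold whose share of all genes is not given here. DESeq2 also called 0 of the 6, with 2.42% of all genes called. In limma with sample quality weights 3 were called lower (Dcn, Lum and Bgn), in a fit that called 10.4% of all genes lower. That fit gave Vivo replicate 3 (0.0942) and Vitro replicate 1 (0.514) the lowest weights of the 9 libraries. Vitro replicate 1 was the highest Vitro library for Dcn, Lum and Bgn. The 4 calls against Vitro became 2 without Vitro replicate 1, 0 without Vitro replicate 2 and 1 without Vitro replicate 3. The 1 call against Con became 0 without Con replicate 3 and 2 without Vitro replicate 1 or Vivo replicate 2. Calls over all genes moved as well when 1 library was left out. They ran from 661 to 1660 against Vitro (1348 with all 9 libraries) and from 341 to 1706 against Con (1203). The comparison with Vitro asks how cells in fat differ from cells kept in culture to the same time, and the comparison with Con how they differ from the starting cells. Both use the same Vivo libraries.

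**Figure D1:**
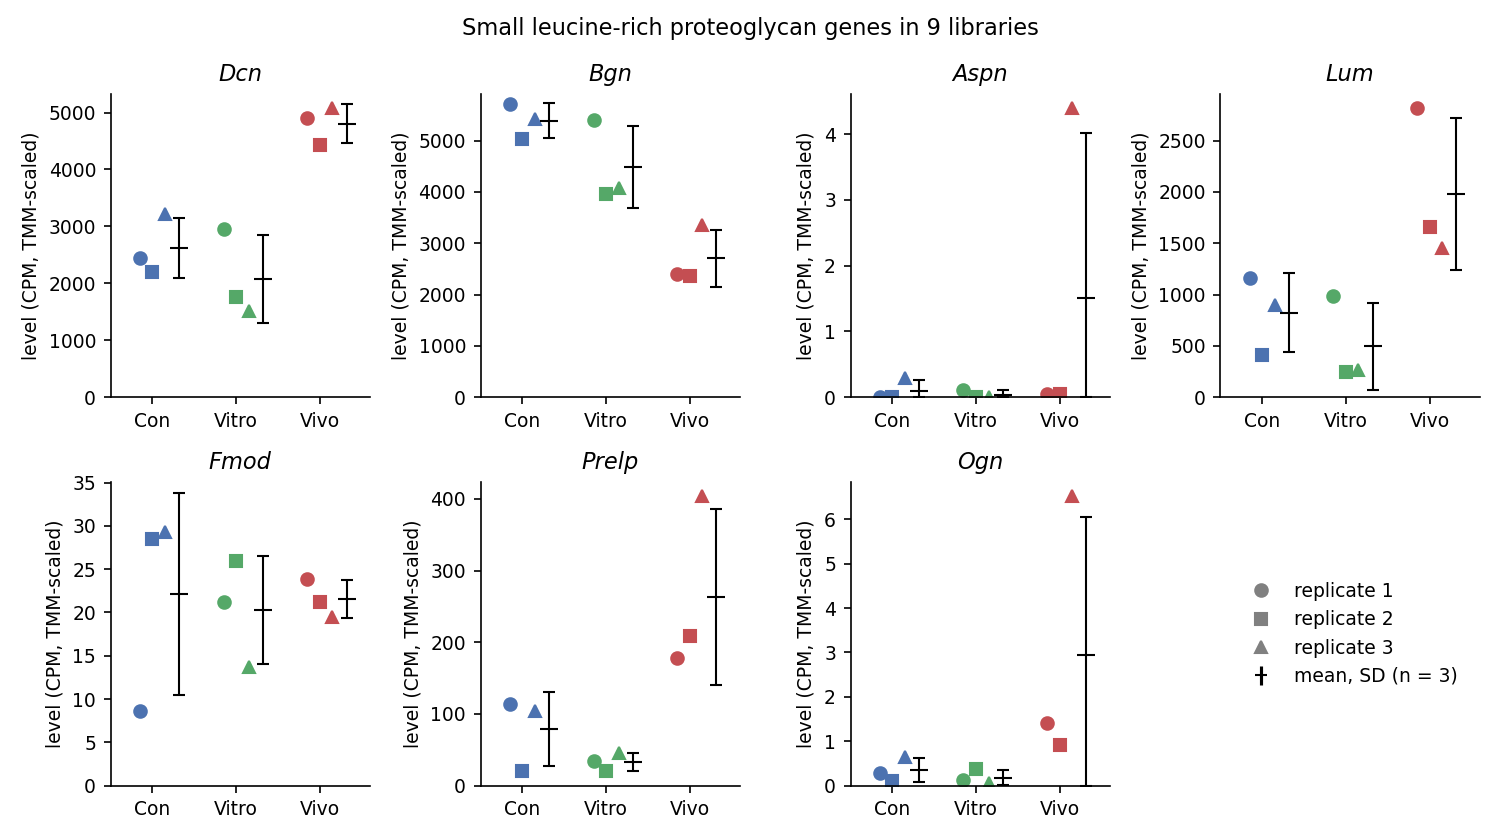
Level of 7 members in each library (vertical axes: CPM scaled by TMM, each from 0). Circles, squares and triangles are replicates 1, 2 and 3 of Con, Vitro and Vivo, and black marks are the mean with its SD (n = 3), drawn no lower than 0. Dcn, Lum and Prelp lie higher and Bgn lower in every Vivo library than in every other library, and Ogn and Aspn are highest in Vivo replicate 3.

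Decorin (ENSRNOG00000004554), which binds collagen fibrils and TGF-beta, stood at 2449.8, 2191 and 3215 CPM in Con replicates 1 to 3. It stood at 2957, 1753 and 1507 CPM in Vitro and at 4902, 4433 and 5085 CPM in Vivo. Each Vivo library was above each cultured library, and the Con and Vitro libraries overlapped. Dcn rose 2.32-fold in Vivo against Vitro (log2 fold change 1.21 ± 0.25, adjusted p = 0.015). That call was lost without Vitro replicate 2 (adjusted p = 0.0716) or Vitro replicate 3 (adjusted p = 0.0579). Against Con the change was 0.88 ± 0.25 on the log2 scale and missed the threshold (adjusted p = 0.055). It passed there without Vitro replicate 1 (adjusted p = 0.0173), with DESeq2 (adjusted p = 0.00885) and in 5 further alternatives, with adjusted p between 0.00885 and 0.178 over all 19. Vitro and Con differed by -0.34 ± 0.25 (adjusted p = 0.68).

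Biglycan (ENSRNOG00000055962), the closest relative of decorin and a ligand of Toll-like receptors when set free from the matrix, was lower in Vivo. Its 3 Con libraries held 5722, 5030.4 and 5424 CPM and its Vitro libraries 5397, 3959.7 and 4079.6 CPM. The Vivo libraries held 2398, 2371 and 3349 CPM. All 3 were below the lowest cultured library, and the highest of them was Vivo replicate 3. Bgn fell by 0.99 ± 0.19 on the log2 scale against Con (adjusted p = 0.012). Without Con replicate 3 the adjusted p was 0.0535. Without Vivo replicate 3 it fell by 1.20 (adjusted p = 0.00271). Against Vitro it fell by 0.73 ± 0.19 (adjusted p = 0.035), a call that held without Con replicate 2 and without Vivo replicate 3. It was lost without Con replicate 1 or 3, any one of the Vitro libraries, or Vivo replicate 1 or 2, with adjusted p up to 0.0966 and with the same direction each time. The call was also lost with a replicate block (adjusted p = 0.0524) and in the fit to the 2 compared groups alone (adjusted p = 0.0945). It held in 10 of 19 alternatives. Vitro stood at -0.27 ± 0.18 against Con (adjusted p = 0.65).

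The ratio of the pair within a library does not depend on any scaling between libraries. On the deposited FPKM (fragments scaled to transcript length and library total), which corrects for gene length, Dcn over Bgn was 0.539, 0.556 and 0.735 in Con. The ratio was 0.688, 0.573 and 0.471 in Vitro, and 2.59, 2.35 and 1.93 in Vivo. Biglycan was thus the more abundant transcript per length in all 6 cultured libraries and decorin in all 3 Vivo libraries. The mean ratio was 0.610 ± 0.109 in Con, 0.577 ± 0.108 in Vitro and 2.29 ± 0.333 in Vivo. The lowest Vivo ratio belonged to Vivo replicate 3, and the ratio itself was not tested.

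Asporin (ENSRNOG00000050431), the class I member without a glycosaminoglycan attachment site, was nearly absent from the libraries. The table listed 0, 0 and 5 counts in Con, 2, 0 and 0 in Vitro, and 1, 1 and 77 in Vivo. It was detected above the filter in 1 library, Vivo replicate 3, the library that stood apart, and the part of that library's quality in the value was not tested. Aspn was too low for the main test. Fitted without a filter on low counts, it had a log2 fold change of 3.86 ± 1.64 against Con (adjusted p = 0.19) and 5.08 ± 1.85 against Vitro (adjusted p = 0.12). A second asporin gene model in the table (ENSRNOG00000015410) held 0 to 4 counts in every library and 3 in Vivo replicate 3, so reads of this gene may be split between 2 entries.

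Lumican (ENSRNOG00000004610), a keratan sulfate proteoglycan of fibrils and best known from the cornea, varied most among the abundant members within the cultured groups. Con replicates 1 to 3 held 1164, 409 and 899 CPM, and Vitro replicates 1 to 3 held 981, 241 and 261 CPM. The Vivo libraries held 2821, 1662 and 1449 CPM. Every Vivo library was above every cultured library, Vitro replicate 1 lay within the range of Con, and the other two Vitro libraries were below every Con library. The log2 change was 2.00 ± 0.58 against Vitro (adjusted p = 0.055) and 1.26 ± 0.57 against Con (adjusted p = 0.18). Neither passed. Against Vitro it passed in 7 of 19 alternatives, without Vitro replicate 1 (2.98, adjusted p = 0.00859) and with DESeq2 (adjusted p = 0.0315) among them, with adjusted p between 9.48e-04 and 0.169. Against Con it passed in 2 of 19, the fit with sample quality weights being one of them (adjusted p = 0.043).

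PRELP (ENSRNOG00000003120), which binds collagen and heparan sulfate and links matrix to basement membranes, had a larger log2 change than Lum in the fit to all libraries in both Vivo comparisons. With sample quality weights that order turned in both (2.73 against 2.83 for Lum versus Vitro), and without Vivo replicate 3 it turned versus Con (1.26 against 1.42). Con replicates held 114, 19.8 and 104 CPM, Vitro replicates 33.8, 20.9 and 45.9 CPM, and Vivo replicates 178, 208 and 404 CPM. All Vivo libraries were above all others, Con replicate 2 was below every Vitro library, and Vivo replicate 3 was the highest of the 9. Prelp rose 7.86-fold against Vitro (2.97 ± 0.61, adjusted p = 0.014). The call was lost without Vitro replicate 1 (adjusted p = 0.0503) or Vitro replicate 2 (adjusted p = 0.0622). Without Vivo replicate 3 the change was 2.51 (adjusted p = 0.0288). Against Con it was 1.73 ± 0.58 (adjusted p = 0.087), and Vitro stood at -1.24 ± 0.57 against Con (adjusted p = 0.46).

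Fibromodulin (ENSRNOG00000003183), a regulator of collagen fibril growth and neighbour of Prelp, was low and passed in no comparison. It stood at 8.64, 28.5 and 29.3 CPM in Con, 21.2, 26.0 and 13.7 CPM in Vitro and 23.9, 21.2 and 19.5 CPM in Vivo. The 3 groups overlapped, and the lowest library was Con replicate 1, well below its group mates. The log2 change was -0.04 ± 0.40 against Con, a sign that turned in 8 of 19 alternatives, with a 95% interval of -0.93 to 0.85 (adjusted p = 0.96). Against Vitro it was 0.09 ± 0.40, with an interval of -0.80 to 0.97 (adjusted p = 0.91). Changes of about 1 on the log2 scale in either direction are inside or close to these intervals. Osteomodulin (ENSRNOG00000046658), a keratan sulfate proteoglycan of bone, had no count in any of the 9 libraries. Its second gene model (ENSRNOG00000039560) had 0 counts as well. The limit that a count of 0 allows was 0.163 to 0.172 CPM before TMM scaling, by counting error alone.

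Osteoglycin (ENSRNOG00000029792), the class III member, was rare in culture. It had 5, 2 and 11 counts in Con, 2, 7 and 1 in Vitro and 26, 17 and 114 in Vivo. In CPM these were 0.284, 0.113 and 0.637, then 0.116, 0.378 and 0.0531, then 1.41, 0.926 and 6.51. The Vivo libraries were above all others, and Vivo replicate 3 held most of the Vivo counts. Ogn passed the filter on low counts through its 3 Vivo libraries and Con replicate 3, so it was tested because it was high in Vivo. It rose by 3.96 ± 0.96 on the log2 scale against Vitro (adjusted p = 0.029). The call was lost without Vivo replicate 3 (2.61, adjusted p = 0.0653) and without any one Vitro library (adjusted p up to 0.108). In the fits on log2(FPKM + 1) and log2(FPKM + 0.1) it was not called (adjusted p = 0.22 and 0.104). The change was 3.07 ± 0.89 against Con (adjusted p = 0.058). It was 1.72 without Vivo replicate 3 (adjusted p = 0.153), and passed without Vivo replicate 2 (adjusted p = 0.0488). The deposited FPKM of Ogn did not follow its counts: FPKM per CPM differed up to 6.73-fold between libraries, against at most 1.11-fold for Dcn, Lum, Bgn, Fmod and Prelp.

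Promoter sequences from RefSeq (GRCr8), 250 bases before to 50 bases after the gene start, were found for 5 of the 8 members. Lum and Ogn are shown as 2 members that were higher in every Vivo library, and Fmod as the tested member that passed in no comparison. Capitals mark matches, on either strand, to the letters of a TATA box (TATAAA), an AP-1 site (TGANTCA), a GC box (GGGCGG) or a CCAAT box (CCAAT).
Lum, chr7:34245456-34245755, plus strand: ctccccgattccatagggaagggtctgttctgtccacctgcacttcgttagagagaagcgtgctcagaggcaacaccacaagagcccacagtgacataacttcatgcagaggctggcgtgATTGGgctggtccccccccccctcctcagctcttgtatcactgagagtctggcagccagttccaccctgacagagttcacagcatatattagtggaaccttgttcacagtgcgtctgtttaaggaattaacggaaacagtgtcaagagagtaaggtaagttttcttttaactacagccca
Ogn, chr17:15258946-15259245, minus strand: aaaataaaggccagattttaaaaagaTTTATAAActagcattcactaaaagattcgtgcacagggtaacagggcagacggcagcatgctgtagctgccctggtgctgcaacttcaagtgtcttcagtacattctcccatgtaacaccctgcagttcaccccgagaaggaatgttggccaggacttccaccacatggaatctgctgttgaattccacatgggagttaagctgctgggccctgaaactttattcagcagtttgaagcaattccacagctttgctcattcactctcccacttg
Fmod, chr13:48045317-48045616, plus strand: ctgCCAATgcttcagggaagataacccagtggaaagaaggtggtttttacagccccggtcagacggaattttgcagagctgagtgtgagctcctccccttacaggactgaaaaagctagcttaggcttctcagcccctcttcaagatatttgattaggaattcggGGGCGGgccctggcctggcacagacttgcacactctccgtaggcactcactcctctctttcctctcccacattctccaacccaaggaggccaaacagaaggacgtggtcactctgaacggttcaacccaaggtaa

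The Lum window held 1 CCAAT box letter match on the reverse strand, 130 bases before the start. The Fmod window held a CCAAT match and a GC box. In the Ogn window the TATA box letters matched on both strands in overlapping positions, 222 and 224 bases before the start. None of the 3 windows held the AP-1 letters. Of 33469 rat promoters of the same length, 14.2% held the TATA letters, 7.33% the AP-1 letters, 33.1% the GC box and 37.5% the CCAAT letters. A match describes the letters alone.

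Per length, the members differed over several orders of magnitude. In Con, Bgn led with 1627 FPKM (1524 to 1724), followed by Dcn with 992 ± 185 and Lum with 316 ± 146. Prelp (4.28 to 24.2) and Fmod (1.74 to 5.90) came next and overlapped, and Ogn, Aspn and Omd stayed below 0.2 FPKM in every Con library. The order was the same in Vitro, again with overlap of Prelp and Fmod. In Vivo, Dcn led with 1893 ± 92.3 FPKM, Bgn (841 ± 144) and Lum (785 ± 307) followed and overlapped each other, and Prelp (58.6 ± 26.1) stood clear of Fmod (4.45 ± 0.519).

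**Figure D2:**
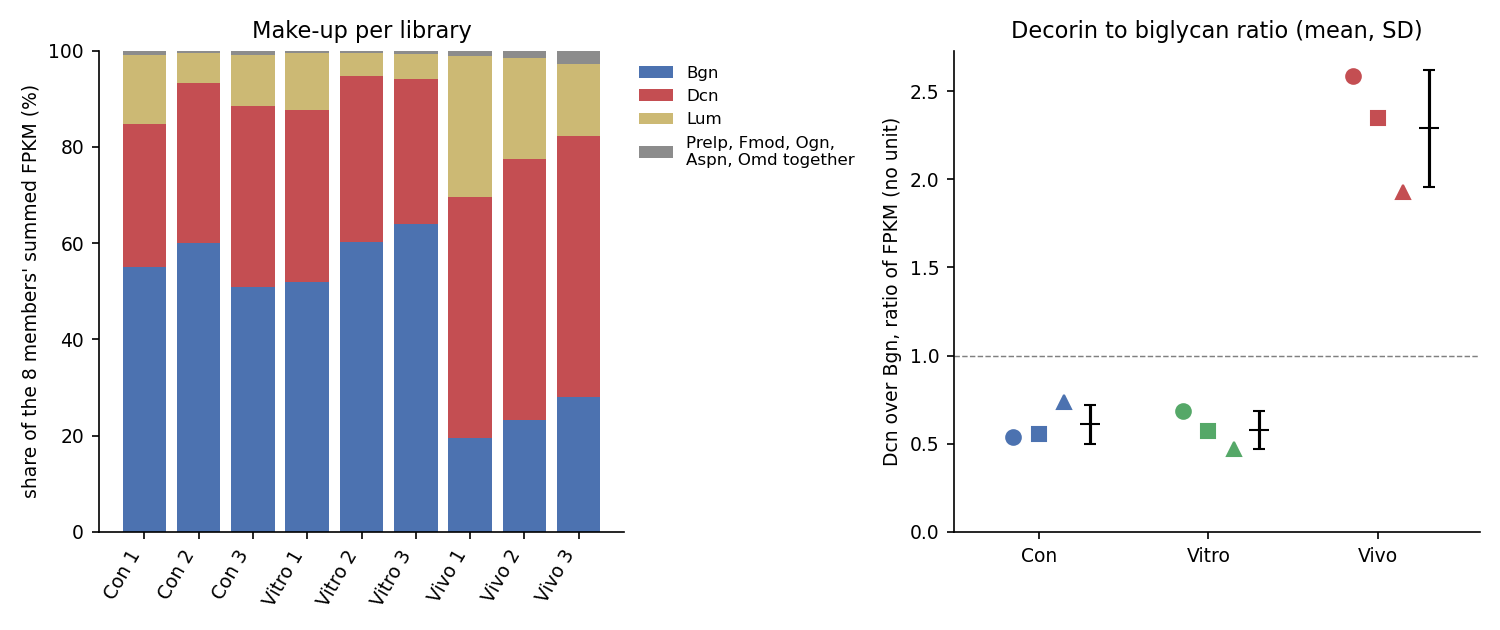
Left, share of the 8 members' summed FPKM taken by Bgn, Dcn, Lum and the other members in each library (percent). Right, ratio of Dcn to Bgn FPKM in each library (no unit), with the mean and SD (n = 3) in black and a dashed line at 1. Bgn holds the larger share in the 6 cultured libraries and Dcn in the 3 Vivo libraries, where the ratio is 1.93 to 2.59.

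Biglycan made up 55.4% ± 4.53 of the family's summed FPKM in Con, 58.7% ± 6.14 in Vitro and 23.6% ± 4.33 in Vivo. Decorin made up 33.5% ± 3.90, 33.5% ± 2.95 and 52.9% ± 2.31. Lumican held 10.4% ± 4.05, 7.31% ± 4.01 and 21.7% ± 7.05, and Prelp 0.547% ± 0.330, 0.331% ± 0.166 and 1.65% ± 0.738. The sum over the 8 members was 2956 ± 364 FPKM in Con, 2406 ± 637 in Vitro and 3583 ± 297 in Vivo. On this scale every Vivo library was above every cultured library, and Con and Vitro overlapped. In TMM-scaled CPM the sums of all 3 groups overlapped, with Vivo replicate 2 (8696) below Con replicates 1 and 3 (9459 and 9671). As a share of all counts, the 8 genes took 0.862% ± 0.0977 in Con, 0.714% ± 0.163 in Vitro and 0.997% ± 0.0791 in Vivo.

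**Figure D3:**
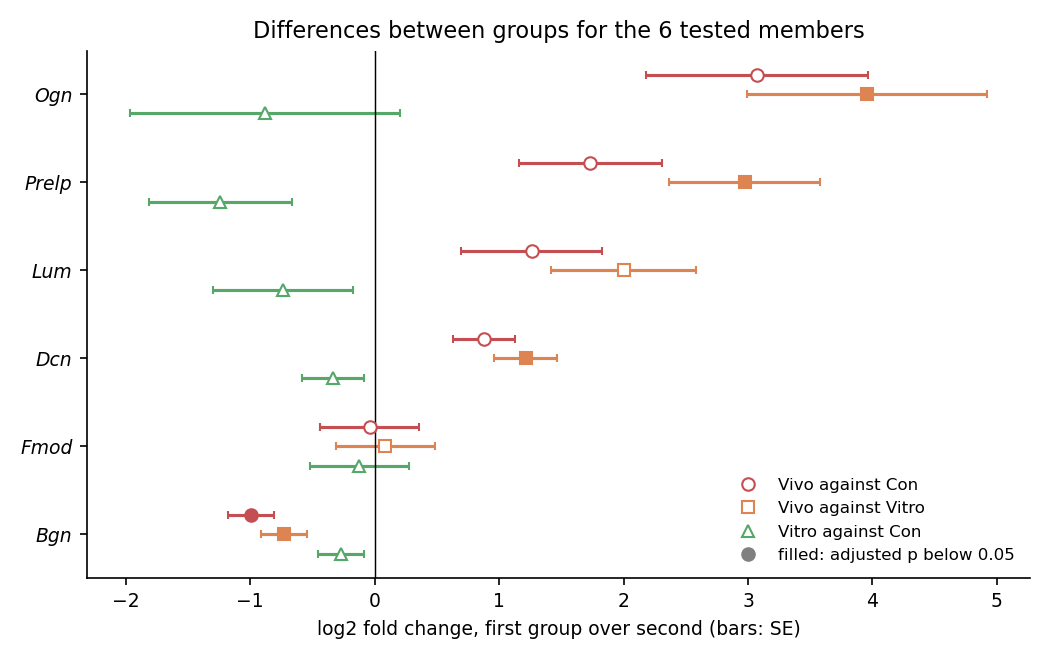
Log2 fold change of each tested member (horizontal axis, first group over second, bars are the SE) for Vivo against Con, Vivo against Vitro and Vitro against Con. Filled symbols passed an adjusted p of 0.05. Ogn, Prelp, Lum and Dcn lie right of 0 in both Vivo comparisons, Bgn lies left, and Fmod lies near 0, with a sign that turns under at least 1 alternative in each comparison. The other 5 lie left of 0 in Vitro against Con.

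Counting libraries rather than tests, the libraries did not overlap for 5 of the 6 tested members in Vivo against Con, where 33.5% of all genes did not overlap, and for 5 of 6 in Vivo against Vitro (35.2% of all genes). Leaving out Ogn, which was tested because of its Vivo level, the count was 4 of 5 in both. In Vitro against Con none of the 6 was free of overlap (21.4% of all genes). All 6 log2 fold changes there were below 0, that of Fmod turning in 5 of 19 alternatives, and the 95% intervals of all 6 included 0.

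**Figure D4:**
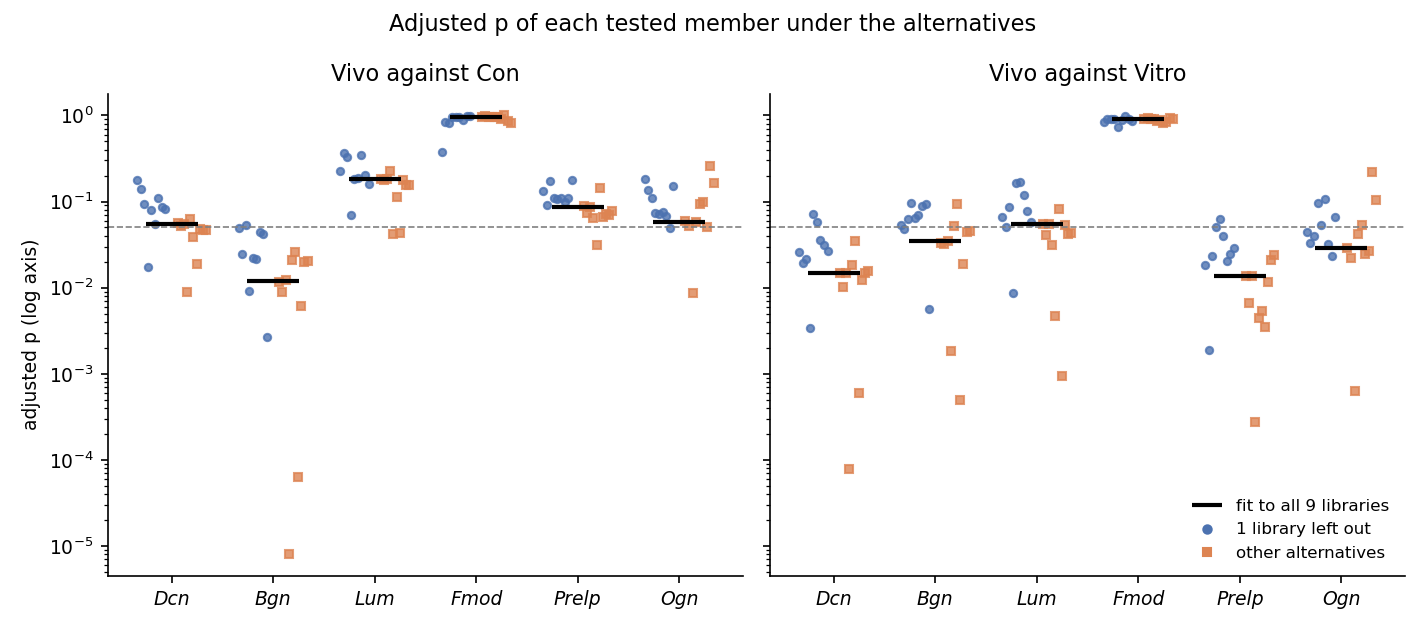
Adjusted p of each tested member (log axis) for Vivo against Con and Vivo against Vitro. Black bars are the fit to all 9 libraries, circles the fits that left out 1 library, squares the other alternatives, and the dashed line marks 0.05. Dcn, Lum, Bgn, Prelp and Ogn scatter across the line in at least one comparison, and Fmod stays far above it.

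Few other members of the family could be tested. Of 10 further small leucine-rich proteoglycan genes listed, 4 had enough counts to be tested (Tsku, Podn, Podnl1 and Optc). In edgeR none was called in any comparison, and DESeq2 also called none. None had an unadjusted p below 0.05, a threshold whose share of all genes is not given here. With 9.73% and 10.9% of all genes called in the Vivo comparisons, 0 of 4 is near the background. Tsku, which encodes tsukushi, a secreted inhibitor of BMP and Wnt signals, held 67.9 to 92.3 CPM in all 9 libraries. Podn, which encodes podocan, held 69.7 to 124 CPM. Kera, which encodes keratocan and follows Lum in GRCr8, had at most 1 count in a library, Epyc at most 25, and Chad none. Ecm2, a leucine-rich repeat matrix gene, had 2 counts, both in Vivo replicate 3.

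The next lists hold the enzymes that build the sugar chains. Of 23 tested genes for the linker and the chondroitin and dermatan sulfate chains, edgeR called none in Vivo against Con or Vivo against Vitro, where 9.73% and 10.9% of all genes were called. At an unadjusted p below 0.05 there were 4 and 6, a threshold whose share of all genes is not given here. DESeq2 called 2 and 1, where it called 16.9% and 17.2% of all genes. The median log2 change of the list was 0.03 and 0.01, where all genes had 0.01 and 0.02. Of 5 keratan sulfate enzymes, only the sulfotransferase gene Chst5 passed in edgeR, lower in Vivo against Vitro (0.925 ± 0.196 against 4.26 ± 1.55 CPM, adjusted p = 0.018). Omitting replicate 2 of Vitro, or replicate 1 or 2 of Vivo, ended that call (adjusted p up to 0.0743). DESeq2 called 2 of the 5 in Vivo against Vitro, 0 of them higher, and 0 in Vivo against Con. It called 17.2% and 16.9% of all genes in these comparisons. The median log2 change of this list was -0.54 against Vitro and -0.73 against Con, where all genes had 0.02 and 0.01. Among 19 other proteoglycan genes tested, 3 were higher and 4 lower against Con, and 6 higher and 1 lower against Vitro. Syndecan-3 (Sdc3), a cell surface heparan sulfate proteoglycan, fell by 2.05 ± 0.22 on the log2 scale against Vitro (adjusted p = 5.0e-04). Cspg4, which encodes the surface proteoglycan NG2, rose by 1.70 ± 0.29 against Con (adjusted p = 0.0086), and without Con replicate 3 its adjusted p was 0.0511. Its level was 8.90 ± 2.21, 21.6 ± 3.08 and 28.8 ± 12.0 CPM in Con, Vitro and Vivo. Against Vitro it was not called (0.42 ± 0.28, adjusted p = 0.36). Glypican-4 (Gpc4) fell by 1.18 ± 0.21 against Con (adjusted p = 0.0098), and without any one library its adjusted p was at most 0.0499. Against Vitro its change was -0.68 ± 0.21 and missed the threshold (adjusted p = 0.070). Prg4, which encodes lubricin, stood at 1.26 ± 0.637 CPM in Con, 0.830 ± 0.147 in Vitro and 10.9 ± 3.18 in Vivo, and rose by 3.71 ± 0.40 on the log2 scale against Vitro (adjusted p = 5.3e-04).

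Genes whose products meet these proteoglycans in the matrix were called in both directions. Of 14 tested fibril collagens and partners, 4 were higher and 3 lower against Con, where 9.73% of all genes were called. Against Vitro 5 were higher and 1 lower, where 10.9% of all genes were called. Dpt, which encodes dermatopontin, a binding partner of decorin on collagen fibrils, stood at 3.78 ± 2.54 CPM in Con, 1.49 ± 0.459 in Vitro and 269 ± 83.8 in Vivo. It rose by 7.48 ± 0.50 on the log2 scale against Vitro (adjusted p = 7.0e-05). Collagen VI, whose filaments bind decorin and biglycan, rose in both tested chains against Vitro: Col6a1 by 1.19 ± 0.13 (adjusted p = 5.5e-04) and Col6a2 by 1.21 ± 0.15 (adjusted p = 0.0013). Against Con the adjusted p of Col6a1 was 0.0562 without Con replicate 3, and Col6a2 lost its call without any one Con library (adjusted p up to 0.105). Col5a3, a chain of collagen V, stood at 64.3 ± 8.68 CPM in Con, 47.7 ± 6.90 in Vitro and 614 ± 153 in Vivo (3.69 ± 0.22 against Vitro, adjusted p = 3.7e-05).

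Of 11 tested proteases and their enhancers, 2 were higher and 2 lower against Con, where 9.73% of all genes were called. Against Vitro 2 were higher and 1 lower, where 10.9% of all genes were called. Bmp1, the proteinase that removes the propeptides of procollagens and of biglycan and osteoglycin, stood at 195 ± 28.2 CPM in Con, 134 ± 8.87 in Vitro and 373 ± 34.4 in Vivo. It rose by 1.48 ± 0.14 against Vitro (adjusted p = 3.1e-04) and by 0.94 ± 0.14 against Con (adjusted p = 0.0046), and passed in all 19 alternatives of each comparison. Pcolce, which encodes its enhancer, fell against Con (-0.86 ± 0.19, adjusted p = 0.022). Leaving out replicate 1 or 3 of Con, or replicate 1 or 2 of Vivo, ended that call (adjusted p up to 0.0897). Pcolce was not called against Vitro (-0.38 ± 0.18, adjusted p = 0.21). Adamts1, a secreted metalloproteinase, fell by 1.74 ± 0.24 against Vitro (adjusted p = 0.0018), and Mmp3, which encodes stromelysin, rose by 3.27 ± 0.61 (adjusted p = 0.0088). Of 19 tested receptors and growth factors bound by the family, 3 were higher and 2 lower against Con (9.73% of all genes called). Against Vitro 1 was higher and 2 lower (10.9% of all genes called). Kdr, a VEGF receptor that decorin can bind, stood at 1.14 ± 0.433, 1.34 ± 0.0519 and 14.8 ± 2.66 CPM in Con, Vitro and Vivo (3.46 ± 0.30 against Vitro, adjusted p = 1.8e-04). Tgfb3, which encodes a TGF-beta ligand, rose by 0.92 ± 0.17 against Con (adjusted p = 0.011), and its adjusted p was 0.0548 without Con replicate 1 and 0.0624 without Con replicate 3. Against Vitro it was not called (0.28 ± 0.17, adjusted p = 0.31). Ctgf and Bmp2, both for secreted signals of the matrix, were lower against both cultured groups. Bmp2 fell by 2.67 ± 0.26 and Ctgf by 0.82 ± 0.20 against Vitro (adjusted p = 3.5e-04 and 0.028). Ctgf missed the threshold against Con when either replicate 1 or 3 of Con, or replicate 2 of Vivo, was omitted. Against Vitro it did so when replicate 3 of Con, or replicate 1 or 2 of Vivo, was omitted (adjusted p up to 0.0793).

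The genes whose levels across the 9 libraries were most like those of each tested member are given as a description by Pearson's r of log2 CPM over 9 libraries that share the same 3 groups. For Dcn they were Galnt5, Pdia3 and the septin 4 gene ENSRNOG00000007367 (r = 0.960, 0.960 and 0.958). For Lum they were Sh3kbp1, Car12 and the gelatinase gene Mmp2 (r = 0.976, 0.965 and 0.962), and for Bgn Il17d, Pygl and Ggt7 (r = 0.992, 0.991 and 0.991). For Prelp they were the matrix gene Thbs4, Fam26e and Osr1 (r = 0.978, 0.972 and 0.972), and for Ogn Dtnbp1, Socs1 and Erp29 (r = 0.971, 0.969 and 0.960). Fmod had no close match, with Syn1, Tigd3 and Ism2 at r = 0.868, 0.838 and 0.827. Between members, r was highest for Dcn and Lum (0.921), followed by Ogn and Prelp (0.833), Dcn and Prelp (0.821) and Dcn and Ogn (0.819). It was lowest for Bgn and Ogn (-0.57) and Dcn and Bgn (-0.57). Every r of Ogn rests on 1 to 11 counts in each cultured library, and Ogn was tested because of its Vivo level. Ogn and Prelp were both highest in Vivo replicate 3, the library that stood apart.

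Markers of the labelled cells were present in every group: the 9 stromal markers summed to 58349 to 75516 CPM in Con, 39779.6 to 59417 in Vitro and 47468 to 51669 in Vivo, with Col1a1 holding the most counts. Counts of markers are not corrected for length. Eng and Pdgfrb of this list were higher in Vivo against Vitro (2 of 9 tested, where 10.9% of all genes were called). Pdgfrb (adjusted p = 0.045) kept its call only without Con replicate 2 or Vivo replicate 3 among the 9 single omissions (adjusted p up to 0.171). Of the macrophage markers, Cd163 had no count and Ptprc, Adgre1, C1qa and C1qb had at most 3 per group, and the list summed to 21.8 to 25.5, 22.1 to 27.6 and 27.4 to 32.9 CPM, mostly counts of Cd14. Csf1r, which encodes the CSF1 receptor, stood at 1.62 ± 0.423 CPM in Con, 2.00 ± 1.08 in Vitro and 4.25 ± 0.725 in Vivo. Against Con its log2 change was 1.39 ± 0.39 (adjusted p = 0.053). DESeq2 called 1 of the 3 tested markers of this list higher against Con, where it called 16.9% of all genes. Cd68 stood at 0.779, 1.26 and 1.57 CPM, and C1qc had 1, 0 and 8 counts. The part of these markers in the proteoglycan values was not tested. Of 8 endothelial markers, 7 had counts in Con, 5 in Vitro and 7 in Vivo. They summed to 36.4 to 46.1, 32.6 to 38.3 and 43.5 to 57.3 CPM, mostly counts of Egfl7, with Cldn5 at 0, at most 3 counts of Emcn per group and Kdr as the one called gene. Mature adipocyte markers summed to at most 1.77 CPM in any library, with Retn and Pck1 at 0 and Fabp4 holding the most counts in each group. Of the lymphocyte markers, Cd3e and Cd3g had no count in any library, and Cd79a had 2 counts, both in Vitro.

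Markers of other cell types differed in Vivo, and their part in the proteoglycan values was not tested. Of all genes, 9.73% were called in Vivo against Con and 10.9% in Vivo against Vitro. The 5 mesothelial markers summed to 23.5 to 29.5 CPM in Con, 25.1 to 29.3 in Vitro and 102 to 143 in Vivo. Msln and Wt1 were higher against both cultured groups, Lrrn4 was lower against Vitro, Upk3b was at 0 in Con and Vivo, and Krt19 had at most 2 counts per group. Against Vitro the Wt1 call held only without Vivo replicate 1 or 3, and the Lrrn4 call only without Con replicate 2, Vitro replicate 3 or Vivo replicate 2, their adjusted p reaching 0.133 and 0.1. Against Con the Wt1 call was lost without Con replicate 3 (adjusted p = 0.0767). The 6 mural markers summed to 45.4 to 58.6, 38.9 to 119 and 52.1 to 76.4 CPM, with 4 of 5 tested higher and Myh11 lower in Vivo against Vitro. Myh11 held the most counts of this list in Con and Vitro, and Abcc9 in Vivo. Against Con 2 of the 5 were higher (Notch3 and Des) and Myh11 lower. The Notch3 call ended when Con replicate 3 or Vivo replicate 1 was omitted, the Des call when Con replicate 1 was, and the Myh11 call when replicate 3 of Con or replicate 2 of Vivo was, with adjusted p up to 0.0756. Tendon and bone markers, of cells rich in several of these proteoglycans, summed to 11.8 to 17.7, 13.4 to 20.6 and 4.84 to 8.17 CPM. Of 4 tested, Scx, Tnmd and Sp7, which held the most counts, were lower in Vivo against both groups, and Alpl was higher against Vitro (adjusted p = 0.0497). The Alpl call held only without Vivo replicate 1, and the Tnmd call against Con only without Vitro replicate 1 or 2 (adjusted p up to 0.152 and 0.117). Of the 3 skeletal muscle markers in the table, which summed to 4.15 to 6.96, 11.8 to 14.7 and 1.09 to 2.51 CPM, Acta1 held the most counts and fell in Vivo against both groups, and Ckm had at most 1 count per group.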

How the data were processed

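The authors' deposited table gave, per the file headers, a whole-number count per gene and library that had not been normalised, and an FPKM made by the authors. Stranded poly(A)-selected libraries were made, per the labels' protocols, and HISAT2 and Rnor_6.0 are named, per the submitters' processing notes. The sources used here do not give the counter, its strand setting, the annotation or versions, so overlapping and antisense genes may share reads. Of the symbols, 27 were date-like, and identifiers were used for them. Groups came from the sample titles, 3 libraries in each. Total counts were 17484607 to 18355242.

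The count table was read into edgeR 4.0.16 (R 4.3.3). Its filterByExpr left 12364 genes, 6 of the 8 members among them, which were TMM-scaled and fitted once over 9 libraries with 6 residual degrees of freedom. Tests were two-sided. A printed SE equals the size of the log2 fold change divided by the root of its F value. Replicates differed beyond sampling noise (chi-square per degree of freedom at least 11.7 for each pair). Levels of different members were compared only as FPKM, while markers within a list were ranked by counts.

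The members and 16 further gene lists (185 symbols with the members, 179 found, the others not analysed here) were chosen with earlier results of these data known. From each list, up to 4 called genes with the smallest adjusted p in either Vivo comparison were named, with the 3 genes most like each tested member, and each marker list's gene with the most counts. Alternatives used RLE size factors, other filters, DESeq2 1.42.0, a replicate block, 1 library left out, 2 groups alone, limma 3.58.1 with quality weights or on log2(FPKM + 1 or 0.1), and gene length offsets. Sequences came from RefSeq (GRCr8). Figures used matplotlib 3.10.9.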

Additional observations from a re-analysis of the deposited data

How the results depend on the processing

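Dcn, Lum, Bgn, Prelp and Ogn kept their direction in every alternative that could be fitted, in all 3 comparisons. Fmod, never called, changed sign. For Vivo against Con its log2 change was 0.037 with the replicate block, 0.080 with quality weights, 0.00038 with gene length offsets, and 0.11 and 0.18 on log2(FPKM + 1) and log2(FPKM + 0.1). With 1 library left out it ranged from -0.43 to 0.21. For Vitro against Con it was 0.047 and 0.092 on the 2 FPKM scales and ranged from -0.51 to 0.13, and for Vivo against Vitro from -0.14 to 0.30, with 1 library left out.

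The number of members called in Vivo against Con was 1 in the fit to all libraries, 3 with DESeq2, 3 with the replicate block, 3 with quality weights, and 2 in the fit to 2 groups, with length offsets and on both FPKM scales. It was 0 to 2 with 1 library left out. The fit to all libraries called 9.73% of all genes there. DESeq2 called 16.9%, and Ogn was among its 3 members. In Vivo against Vitro the number of members was 4. It was 5 with no filter, DESeq2 or quality weights, where Lum passed (adjusted p = 0.0407, 0.0315 and 9.48e-04). It was 2 in the fit to 2 groups and 0 to 4 with 1 library left out, with 0 reached without Vitro replicate 2 and 1 without Vitro replicate 3. The fit to all libraries called 10.9% of all genes there and DESeq2 17.2%, and Ogn was among the members called in both. The number of all genes called moved with the setting too. Over the 19 alternatives it was 341 to 3458 in Vivo against Con and 661 to 2852 in Vivo against Vitro. A change in the number of members called is thus not read as a result about the members alone. In Vitro against Con the number of members was 0, then 3 with quality weights. With the block, Lum passed in both Vivo comparisons and Prelp against Con, while Bgn against Vitro did not (adjusted p = 0.0524). The numbers were not taken to pair libraries, because the labels do not say that a number marks a shared animal or batch. Same-numbered libraries deviated together above r = 0.1 in 3 of 9 pairs (-0.01 to 0.36), most in Con and Vitro replicates 1 and 2 (0.36 and 0.32). Among the 3 libraries of another group, a library correlated best with its own number in 13 of 18 cases. Whether same-numbered libraries share an origin was not tested. The cause of the shifts in calls between settings was not tested.

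Over all genes, 341 to 3458 were called in Vivo against Con (1203 in the fit to all libraries), 661 to 2852 in Vivo against Vitro (1348) and 0 to 2690 in Vitro against Con (4). Ogn could not be fitted with the 1 CPM filter, nor for Vitro against Con in the fit to those groups alone. Counting depth limits Aspn, Omd and Ogn.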
